A study of Arabidopsis thaliana with 75 samples.

Results

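The chloroplast-encoded genes of Arabidopsis are the loci of the circular plastid genome, recognised here by an identifier of ATCG and 5 digits. The mRNA count tables list 89 of them among 32844 gene loci. The tables of uncapped RNA list 133 among 32678, of which 44 have no entry in the mRNA tables and are given by identifier only. Of the 89, 84 could be named from RefSeq and 75 have the same start and end there.

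RNA was taken from 14 day old whole seedlings, left untreated or given 1 µM flg22 (a peptide of bacterial flagellin that plants sense as a sign of infection) for 4 h, and from leaves of 4 week old plants. Col-0 is the reference accession. The mta line is named for MTA, a catalytic subunit of the enzyme that writes N6-methyladenosine (m6A) on mRNA, and its labels give no allele. The 35SALKBH10B line carries ALKBH10B, an enzyme that removes m6A, under the broadly active 35S promoter. Leaf titles give 00 or 24 with no unit and name a bacterium, while their treatment tag gives flg22. Leaf groups are therefore named 00 and 24 here. Each of the 25 groups has 3 samples. Seedling mRNA is reported for Col-0 and mta, leaf mRNA for Col-0 and mta, and uncapped RNA for seedlings of Col-0, mta and 35SALKBH10B. Untreated columns are named for 4 h in seedling mRNA and for the start in uncapped RNA, so a difference with flg22 in uncapped RNA cannot be told apart from 4 h of time. The labels do not say that replicates came from separate cultures, so p-values measure only the spread between these samples.

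Plastids descend from cyanobacteria and keep a small genome for parts of the photosystems, the ATP synthase, the cytochrome b6f complex, the NDH complex, Rubisco, ribosomes and an RNA polymerase. A plastid-encoded polymerase, built of the products of rpoA, rpoB, rpoC1 and rpoC2 and directed by nuclear sigma factors, transcribes most photosynthesis genes. Phage-type polymerases from the nucleus transcribe the rpoB operon itself. Most plastid transcripts come from operons of several genes, carry no cap, and in plants receive a poly(A) tail mainly as a mark for degradation, so a library made from poly(A)+ RNA holds only the tailed fraction of them.

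Every library here was made after 2 rounds of poly(A) selection, and the chloroplast fraction was small. Chloroplast genes took between 0.0205% and 0.246% of the gene-locus counts of an mRNA library. Those libraries held 9442047 to 13222937 counts in seedlings and 20467621 to 44052628 in leaves. GMUCT, which sequences uncapped and cleaved RNA by ligating an adaptor to the free 5′ ends of poly(A) RNA, had 3107893 to 41465534 reads a library, and the shallowest was replicate 2 of untreated Col-0. Values are in CPM for mRNA and RPM for uncapped RNA. RPM is a gene's reads scaled to the same total in every library. CPM is a gene's counts scaled by the library total and by a TMM scaling factor, so CPM totals differ between libraries. The line checks rest on uncapped RNA, since MTA is listed at 0 in all 24 mRNA libraries of both genotypes. Uncapped MTA was at 21.8, 18.3 and 23.8 RPM in untreated Col-0 and at 9.65, 9.91 and 10.02 in untreated mta. Uncapped ALKBH10B was at 469, 442 and 410 RPM in untreated 35SALKBH10B against 37.7, 36.0 and 37.3 in Col-0.

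Overlapping loci limit which genes can be followed. On the plastid chromosome of TAIR10 the annotated psbB locus (positions 72034 to 77672, plus strand) also spans psbT, psbH, petB and petD. The rps3 locus (79489 to 85843, minus strand) spans several others, among them rpl36, rpl14, rpl16, rpl22, rps19 and rpl2, and the rpl20 locus (66918 to 71940) spans clpP and part of rps12. The 13 genes covered whole by another gene of the same strand were at 0 in all 24 mRNA libraries, although the GMUCT tables list reads for genes among them such as rpl16 and rpl22. In mRNA, a value for rps3, psbB or rpl20 is therefore a value for a stretch of operon. A second copy in the inverted repeat exists for 12 genes, and 58 of the 89 have an opposite-strand feature over part of them. That feature covers 96.6% of psbA (383 to 1444, minus strand). Unlike the 13 genes covered on the same strand, rbcL, covered 100% on the opposite strand, held 13410 counts in seedlings. How far reads of the opposite strand enter a gene's count was not tested. After a filter on low counts 56 of the 89 were tested in seedling mRNA and 56 in leaf mRNA, 54 of them in both, and 76 of the 133 in GMUCT. In all, 33, 33 and 57 genes were not tested, and counts below refer to the tested genes.

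Per kilobase, the order of the mean mRNA levels changed between groups. In seedlings rpl32, a protein of the large ribosomal subunit, was first in untreated Col-0 (97.1 CPM per kb), untreated mta (82.9) and mta with flg22 (86.6), with psbA, which encodes the D1 protein of photosystem II, second at 72.3, 45.3 and 51.9. In Col-0 with flg22 psbA was first at 312 CPM per kb, a mean that holds the 801 CPM of replicate 1 described below. In leaves psaJ, a small subunit of photosystem I, was first in Col-0 at 24 (60.1 CPM per kb) and mta at 00 (69.2), rbcL, the large subunit of Rubisco, in Col-0 at 00 (53.8) and psbA in mta at 24 (165). In uncapped RNA rpl16 was first in the 4 groups of Col-0 and mta, at 583 to 1326 RPM per kb. In 35SALKBH10B rps14 was first, at 190 RPM per kb untreated and 2190 with flg22, where atpB, the beta subunit of the ATP synthase, followed at 1896 and rpl16 had 189.6. The rpl16 values have no counterpart in mRNA, where its locus is covered by rps3.

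**Figure D1:**
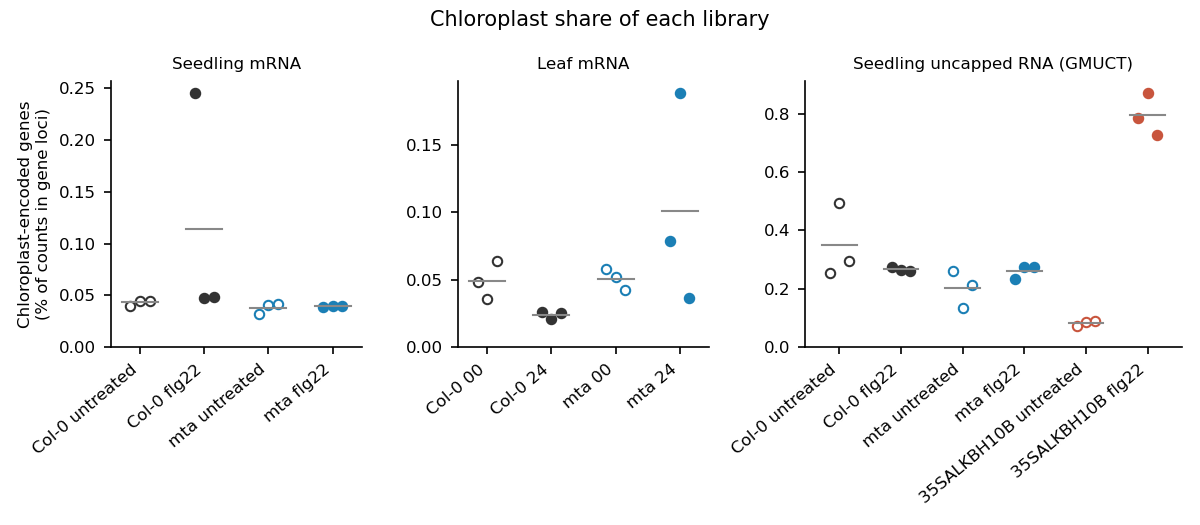
Share of gene-locus counts or RPM in chloroplast-encoded genes (percent, vertical axis) in every library of seedling mRNA, leaf mRNA and GMUCT, with open points for untreated or 00, filled points for flg22 or 24, and a grey bar at the mean. One Col-0 library with flg22 at 0.246% and one mta leaf library at 24 at 0.188% lie above all others of their tissue, and the 3 GMUCT libraries of 35SALKBH10B with flg22 lie between 0.726% and 0.870%.

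In Col-0 seedlings flg22 was followed by higher mRNA of photosynthesis and expression genes of the plastid, but 1 library carried most of the size. Without that library the share of chloroplast genes that rose was near the background, while 0 fell. Of 56 tested genes, 39 rose and 0 fell, where 27.9% of all genes tested rose and 30.7% fell. The median log2 fold change of the 56 was 1.43, against −0.10 over all genes. Replicate 1 of Col-0 with flg22 had 0.246% of its counts in chloroplast genes, while the other 11 seedling libraries had 0.0323% to 0.0483%. Its mitochondrial share was high as well, at 0.0330% against 0.00572% to 0.00915%. Without that library 16 of 56 tested genes rose, all of them among the 39, and 0 fell. That share of rises was near the background of 27.5% higher, and the median log2 fold change was 0.44. With every library scaled to its own chloroplast total, 0 genes passed. That scale, here and below, removes any change common to the chloroplast genes by construction. Counts on it therefore cannot speak to such a change. The summed CPM of 4 leaf mesophyll markers, of which LHCB1.1 is listed at 0, moved too, from 7859 to 8574 untreated to 4904 to 5904 with flg22 in Col-0 and from 8484 to 9239 to 5706 to 6028 in mta. Its part in these results was not tested. In bulk RNA, fewer cells of a type and less RNA per cell cannot be told apart.

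The photosynthesis genes show what that library does. For psbA the untreated Col-0 libraries had 67.8, 68.5 and 94.0 CPM, and those with flg22 had 801, 84.9 and 107 CPM. The groups overlapped, and the 801 CPM of replicate 1 stood far above the rest. The log2 fold change was 2.12 ± 0.39 (SE, edgeR adjusted p = 1.31e-05) with that library and 0.36 ± 0.14 (edgeR adjusted p = 0.0316) without it. For rbcL the values were 42.9, 64.5 and 56.8 CPM untreated and 680, 82.7 and 88.5 CPM with flg22, which did not overlap. Its log2 fold change was 2.38 ± 0.38 (edgeR adjusted p = 1.57e-06) and, without replicate 1, 0.68 (edgeR adjusted p = 7.28e-05). ATCG01180, a locus over several ribosomal and transfer RNA genes, had the largest rise of all, from 0.533, 1.88 and 1.74 CPM to 18.8, 1.97 and 2.94. That rise of 2.54 ± 0.61 on the log2 scale (edgeR adjusted p = 0.000482) did not pass without replicate 1, at 0.87 (edgeR adjusted p = 0.277). The photosystem II subunit gene psbJ, at 2.27 ± 0.80 (edgeR adjusted p = 0.014), likewise lost its call without that library or without untreated replicate 2 (edgeR adjusted p up to 0.427).

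By role, all 6 genes of the ATP synthase rose, as did 8 of 12 of photosystem II and 4 of 5 of photosystem I. So did 5 of 6 genes of the small ribosomal subunit, 3 of 4 of the RNA polymerase and 4 of 9 of the NDH complex. The group medians on the log2 scale were 1.56 for the ATP synthase, 1.75 for photosystem II, 1.81 for photosystem I, 1.74 for the small ribosomal subunit and 0.74 for the RNA polymerase. The 16 of 56 genes that rose without replicate 1, a share near the background of 27.5% higher, came from most of these groups. They included atpA, atpB, atpH and atpI of the ATP synthase, psaA and psaB (the core of photosystem I), psbA, psbB and psbC of photosystem II, petA of cytochrome b6f, rbcL, rpl20, rps3, rpoB and rpoC1.

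Of the polymerase genes, rpoB and rpoC1 kept their call without replicate 1 and rpoC2 did not. The mRNA of rpoB, the beta subunit (23111 to 26329, minus strand), stood at 29.3, 20.3 and 17.9 CPM untreated and at 31.3, 38.7 and 37.9 CPM with flg22. Replicate 1 was here the lowest of the treated libraries, and the groups did not overlap (0.67 ± 0.14 on the log2 scale, edgeR adjusted p = 0.000126). The neighbouring rpoC1, the beta′ subunit, went from 7.99, 8.37 and 5.99 to 16.7, 12.03 and 9.27 CPM, again without overlap (0.77 ± 0.20, edgeR adjusted p = 0.0014). The rps3 stretch of ribosomal protein genes went from 6.85, 8.03 and 5.41 to 15.6, 13.1 and 10.7 CPM (0.96 ± 0.20, edgeR adjusted p = 0.000111). All 3 treated libraries lay above all 3 untreated ones. Scaled to the chloroplast total, rpoB would be 0.25 lower on the log2 scale in place of higher.

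**Figure D2:**
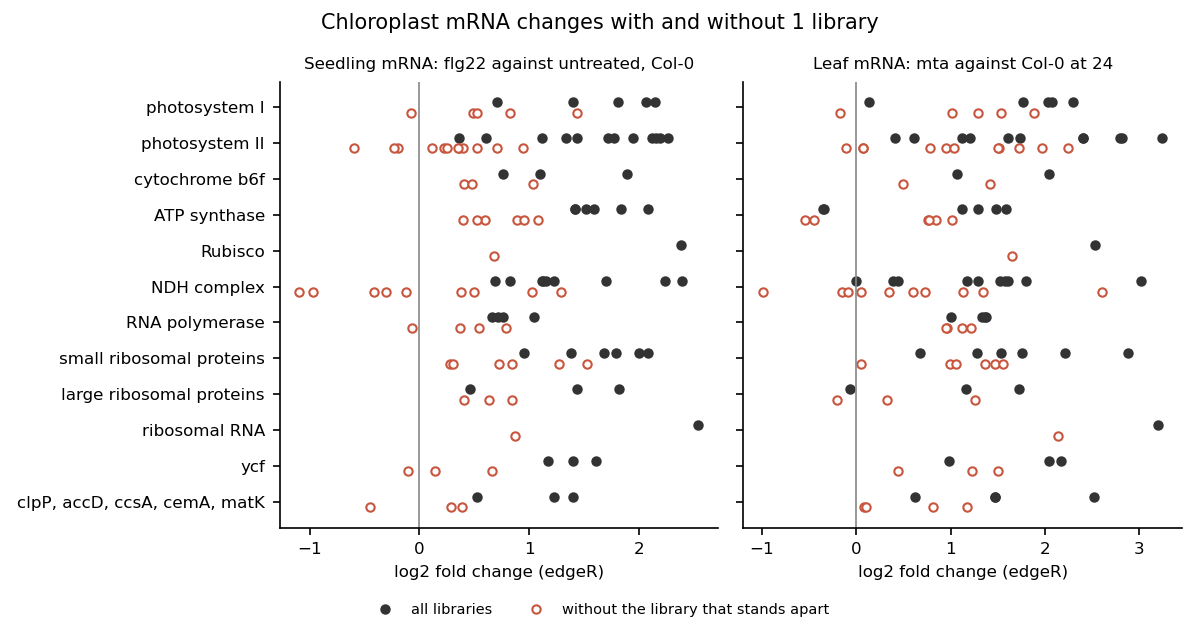
Log2 fold changes (horizontal axis, edgeR) of the tested chloroplast-encoded genes by role (rows), for flg22 in Col-0 seedlings and for mta against Col-0 leaves at 24, with filled points for all libraries and open points without the 1 library that stands apart. Without it the median of the tested genes moves from 1.43 to 0.44 in seedlings and from 1.51 to 0.96 in leaves.

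In mta seedlings no chloroplast gene passed with flg22. The count was 0 of 56 by edgeR in both directions, with 0 at an unadjusted p under 0.05 and 0 by DESeq2, where 22% of all genes rose and 20.2% fell. Without a filter on low counts edgeR called 6 higher, and leaving out untreated mta replicate 3 gave 1. For psbA the untreated mta libraries had 34.1, 49.8 and 60.2 CPM and those with flg22 had 59.1, 56.2 and 50.2 CPM, which overlap. For rbcL they had 25.3, 29.9 and 37.7 and then 52.9, 43.3 and 38.3 CPM, which do not overlap but did not pass. For rpoB the values were 34.5, 29.9 and 28.96 untreated and 33.2, 35.3 and 33.6 CPM with flg22.

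The flg22 response differed between the genotypes by a test of the difference itself, though again with the weight of 1 library. The difference, mta minus Col-0, was negative past the threshold for 16 of 56 genes and positive for 0, at a background of 12.2% negative and 6.91% positive. Among the larger differences were rps14 at −2.21 and psbA at −1.92 ± 0.56 on the log2 scale (edgeR adjusted p = 0.0115). Without replicate 1 of Col-0 with flg22 the count was 1, rpoB, at a background of 11.8% negative. Without it psbA was at −0.15 (edgeR adjusted p = 0.686), and the call of rps14 was lost when any of 7 libraries was left out. The count was 9 without mta flg22 replicate 1 or untreated mta replicate 2, 6 without untreated mta replicate 3, 7 by DESeq2, and 0 when scaled to the chloroplast total.

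After flg22 and with all libraries, mta seedlings had less mRNA than Col-0 seedlings of genes from every photosynthesis complex, while no polymerase gene was called. Most of these calls rested on 1 Col-0 library. Of 56 genes, 31 were lower and 0 higher, at a background of 19.9% lower and 18.1% higher, and the median log2 difference was −1.29. All 6 genes of the ATP synthase (median −1.59) and all 5 of photosystem I (median −1.72) were lower, as were 4 of 12 of photosystem II. The median of the 4 polymerase genes was 0.01. Without Col-0 flg22 replicate 1, 7 of 56 genes were lower, namely atpB, psaB, psbA, psbB, psbC, rbcL and rpl32, and rpoC2 was higher. Both shares lay below the background of 19.4% lower and 14.3% higher. No gene of cytochrome b6f or the NDH complex was then among the lower ones. For psbA the difference was −2.59 ± 0.40 on the log2 scale (edgeR adjusted p = 2.3e-06) with that library and −0.84 (edgeR adjusted p = 1.58e-05) without it. For rbcL it was −2.67 ± 0.39 (edgeR adjusted p = 1.04e-06) and −0.97 (edgeR adjusted p = 8.63e-07). For rps18, a protein of the small ribosomal subunit with at most 5.17 CPM in a library, the difference of −2.39 ± 0.74 (edgeR adjusted p = 0.00964) was lost without that library or without mta flg22 replicate 3 (edgeR adjusted p up to 0.135). Scaled to the chloroplast total, which removes any common change, 0 genes were called, and psbD, psaA and ycf1 turned to 0.18, 0.44 and 0.36 higher in mta.

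Without treatment the genotypes differed in few chloroplast genes. In mta 4 genes were higher and 1 lower than in Col-0, at a background of 18.1% higher and 15% lower. The higher genes included rpoB, rpoC1 and rps3, and the lower one was psaJ. Untreated mta had 34.5, 29.9 and 28.96 CPM of rpoB against 29.3, 20.3 and 17.9 in Col-0, and only the lowest mta library fell below the highest of Col-0. The log2 difference of 0.46 ± 0.14 (edgeR adjusted p = 0.0111) lost its call when any of 3 libraries was left out (edgeR adjusted p up to 0.109). For rpoC1 mta had 13.1, 12.7 and 10.9 CPM against 7.99, 8.37 and 5.99, without overlap (0.71 ± 0.20, edgeR adjusted p = 0.00551). For rps3 mta had 11.4, 12.7 and 11.7 CPM against 6.85, 8.03 and 5.41, also without overlap (0.81 ± 0.20, edgeR adjusted p = 0.00163). In psaJ mta had 1.69, 2.33 and 2.06 CPM against 2.81, 4.61 and 3.86 (−0.89 ± 0.34, edgeR adjusted p = 0.04), without overlap, but the call was lost when any of 5 libraries was left out. The count over all genes was 2 without untreated Col-0 replicate 3, and 3 without untreated Col-0 replicate 2, untreated mta replicate 1 or untreated mta replicate 3. It was 9 with no filter on low counts, 1 with a fold of at least 2, and 0 when scaled to the chloroplast total.

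**Figure D3:**
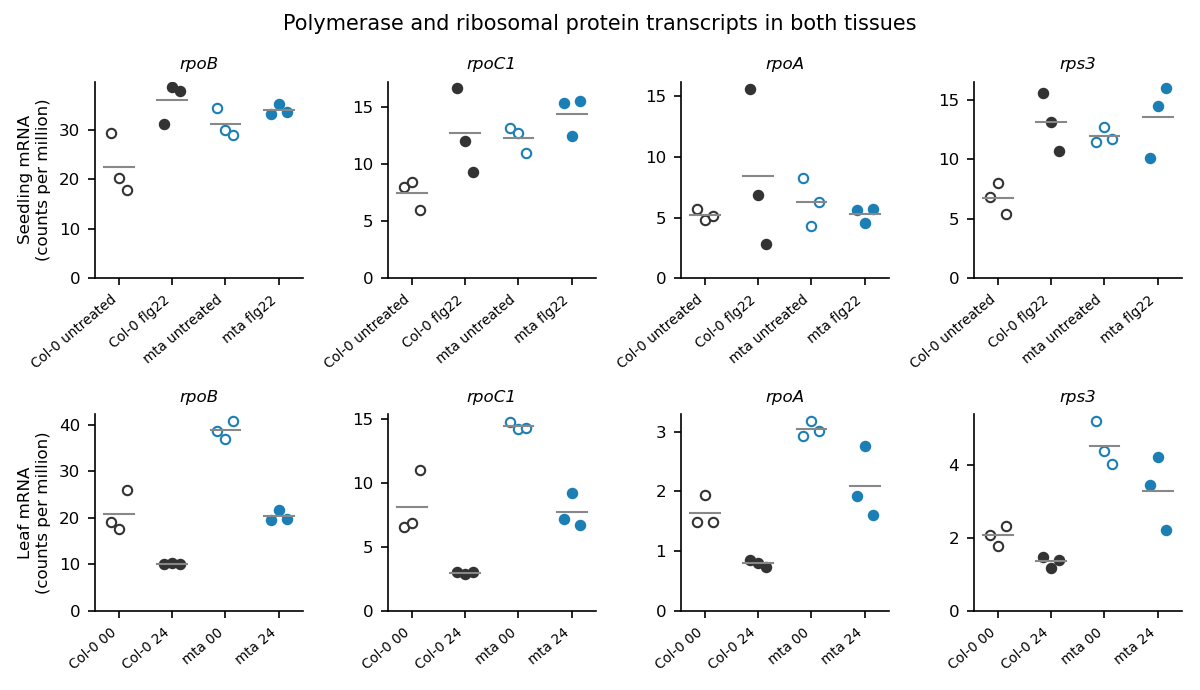
TMM-scaled CPM (vertical axis) of rpoB, rpoC1, rpoA and rps3 in every seedling and leaf mRNA library of Col-0 and mta, with open points for untreated or 00, filled points for flg22 or 24, and a grey bar at the group mean. In leaves all 3 mta libraries lie above all 3 Col-0 libraries for rpoB at 00 (36.9 to 40.7 against 17.5 to 25.95 CPM) and at 24 (19.4 to 21.7 against 9.998 to 10.2 CPM).

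At 00 mta leaves had 5 genes higher and 1 lower than Col-0 leaves, at a background of 15.5% higher and 13.3% lower. The higher genes included rpoA, rpoB, rpoC1 and rps3, and the lower one was atpB. For rpoB the mta libraries had 38.6, 36.9 and 40.7 CPM against 19.03, 17.5 and 25.95 in Col-0, without overlap (0.90 ± 0.13 on the log2 scale, edgeR adjusted p = 0.000966). For rpoC1 they had 14.8, 14.2 and 14.3 against 6.58, 6.88 and 10.96 (0.83 ± 0.19, edgeR adjusted p = 0.00792), and for rpoA, the alpha subunit, 2.93, 3.18 and 3.02 against 1.49, 1.94 and 1.48 (0.90 ± 0.22, edgeR adjusted p = 0.012). Neither gene's groups overlapped. For rps3 the values were 5.20, 4.38 and 4.03 against 2.09, 1.79 and 2.33 CPM (1.13 ± 0.23, edgeR adjusted p = 0.00497). For rpoC2, the beta″ subunit, the difference of 0.73 did not pass (edgeR adjusted p = 0.0826). The atpB mRNA stood at 38.6, 44.9 and 39.2 CPM in mta and at 50.5, 58.4 and 55.7 in Col-0 (−0.42 ± 0.14, edgeR adjusted p = 0.0413), without overlap, but its call was lost when any of 6 libraries was left out. With a fold of at least 2 the count over all genes was 2, and scaled to the chloroplast total it was 0.

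From 00 to 24, chloroplast mRNA fell in Col-0 leaves across the roles. Of 56 tested genes, 25 fell and 0 rose, at a background of 32.7% lower and 35.6% higher over all genes, and the median log2 fold change was −1.02. All 4 polymerase genes fell (median −1.25), as did 5 of 6 of the small ribosomal subunit (median −1.41), 5 of 6 of the ATP synthase (median −0.82), 4 of 11 of photosystem II, 2 of 5 of photosystem I and 2 of 10 of the NDH complex. The mRNA of rpoB went from 19.03, 17.5 and 25.95 to 9.998, 10.2 and 10.02 CPM, without overlap (−1.05 ± 0.13, edgeR adjusted p = 2.99e-05). That of rpoC2 went from 5.32, 4.42 and 8.21 to 1.39, 2.39 and 2.19 CPM (−1.58, edgeR adjusted p = 0.000793). For atpE, the epsilon subunit of the ATP synthase, 12.3, 12.3 and 12.6 CPM became 7.38, 7.82 and 8.54 (−0.65 ± 0.11, edgeR adjusted p = 0.000329). In all 3 genes every library at 24 lay below every library at 00.

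The largest falls were in weakly expressed genes. For matK, a maturase of plastid introns, Col-0 had 0.550, 1.12 and 2.12 CPM at 00 and 0.221, 0.161 and 0.0889 at 24 (−2.98 ± 0.80, edgeR adjusted p = 0.00596). For ndhH, a subunit of the NDH complex, 0.481, 0.303 and 0.794 CPM became 0.0631, 0.0806 and 0.119 (−2.54 ± 0.55, edgeR adjusted p = 0.00155). The fall of rps18, of −2.54 (edgeR adjusted p = 0.0429), was lost when any of 4 libraries was left out. The rbcL mRNA went from 65.4, 56.0 and 111 to 28.5, 24.5 and 34.6 CPM, without overlap (−1.41, edgeR adjusted p = 0.0193), a call lost when any of 3 libraries was left out (edgeR adjusted p up to 0.0823). Without Col-0 00 replicate 3 the count of falls was 12, and without Col-0 24 replicate 2 it was 13. Scaled to the chloroplast total, which removes any common change, 3 genes were higher and 1 lower, with rpoB at 0.022 and atpB at 0.48. The summed CPM of 4 leaf mesophyll markers moved as well, from 26283 to 34844 at 00 to 10771 to 19066 at 24 in Col-0, and from 39527 to 50972 to 25466 to 26225 in mta. Its part in these results was not tested.

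From 00 to 24 few chloroplast genes were called in mta leaves. Of the tested genes, 4 were called higher and 5 lower, at a background of 30.9% higher and 28.1% lower. The lower genes were rpoB, rpoC1 and rpoC2 of the polymerase and atpB and atpE of the ATP synthase, and the higher ones included psbA. The mRNA of rpoB went from 38.6, 36.9 and 40.7 to 19.4, 21.7 and 19.6 CPM (−0.94 ± 0.13, edgeR adjusted p = 0.000121) and that of rpoC1 from 14.8, 14.2 and 14.3 to 7.16, 9.17 and 6.74 CPM (−0.91 ± 0.19, edgeR adjusted p = 0.00164). That of rpoC2 went from 9.19, 10.7 and 9.99 to 3.60, 7.42 and 4.15 CPM (−0.98, edgeR adjusted p = 0.0151), and its call was lost without mta 24 replicate 1 or 3. All 3 genes fell without overlap between 00 and 24, and the call of atpB was lost when any of 3 libraries was left out (edgeR adjusted p up to 0.077). Fold changes of rpoB in mta and Col-0 did not differ past the threshold (0.11 ± 0.19 on the log2 scale, edgeR adjusted p = 0.751).

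One library bears most of the rise in mta leaves. Replicate 2 of mta at 24 had 0.188% of its counts in chloroplast genes, and the other 11 leaf libraries had 0.0205% to 0.0786%. Its mitochondrial share, 0.00284%, lay within the 0.00143% to 0.00323% of the others. Of its reads 12.7% were not unique and 17.8% were not counted, against 3.71% to 7.31% and 8.12% to 12.3% in the other 11. The part of that in these results was not tested. The psbA mRNA was at 66.1, 42.5 and 27.9 CPM in mta at 00 and at 122, 358 and 46.5 CPM at 24, where groups overlap (1.95 ± 0.59, edgeR adjusted p = 0.0147). ATCG01180 went from 56.3, 86.9 and 68.8 to 225, 574 and 46.5 CPM, with replicate 3 below all of 00. Without replicate 2, 0 genes rose and 10 fell, at a background of 28.7% higher and 24.8% lower. These were atpB, atpE, matK, rpoA, rpoB, rpoC1, rpoC2, rps2, rps3 and rps18, and psbA was then at 0.89 (edgeR adjusted p = 0.116). Without mta 00 replicate 3 the count was 5. DESeq2 called 6 higher and 5 lower.

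At 24, mta leaves had more chloroplast mRNA than Col-0 leaves, the polymerase genes included. Of 56 genes, 32 were higher and 1 lower, at a background of 14.5% higher and 14.2% lower, and the median log2 difference was 1.51. All 4 polymerase genes were higher (median 1.35), as were 7 of 11 of photosystem II (median 1.74), 3 of 5 of photosystem I (median 2.04), 4 of 6 of the ATP synthase and 4 of 6 of the small ribosomal subunit. The rpoB mRNA was at 19.4, 21.7 and 19.6 CPM in mta and at 9.998, 10.2 and 10.02 in Col-0 (1.01 ± 0.13, edgeR adjusted p = 0.000438), without overlap. For rbcL mta had 121, 323 and 63.2 CPM against 28.5, 24.5 and 34.6 (2.53 ± 0.49, edgeR adjusted p = 0.00317), also without overlap. For ndhH mta had 0.749, 1.12 and 0.406 CPM against 0.0631, 0.0806 and 0.119 (3.02 ± 0.55, edgeR adjusted p = 0.00232), and for ATCG01180 225, 574 and 46.5 against 23.3, 27.4 and 41.3 (3.20 ± 0.66, edgeR adjusted p = 0.00467). The largest difference, in psbZ of photosystem II at 3.24 ± 0.86 (edgeR adjusted p = 0.0158), rests on at most 1.01 CPM in a library and was lost without Col-0 24 replicate 3 or mta 24 replicate 2. The exception was atpE, at −0.35 ± 0.12 (edgeR adjusted p = 0.043), lost when any of 4 libraries was left out. Without mta 24 replicate 2, 20 genes were higher and 2 lower, at a background of 10% higher and 8.85% lower, and the median was 0.96. Without Col-0 24 replicate 3, 21 were higher and 0 lower. Scaled to the chloroplast total, which removes any common change, 0 were higher and 6 lower, with rpoB at −0.50.

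The change from 00 to 24 differed between the genotypes for 7 of 56 genes, all more positive in mta, at a background of 4.77% positive and 4.97% negative. The largest differences were 3.40 ± 0.73 on the log2 scale for ndhH (edgeR adjusted p = 0.0164), 3.27 ± 0.89 for ATCG01180 (edgeR adjusted p = 0.0407) and 3.01 ± 0.83 for psbA (edgeR adjusted p = 0.0435). Without mta 24 replicate 2 only ndhH was called, at a background of 2.41% positive. The count also fell to 1 without any one of Col-0 00 replicates 1 and 3, Col-0 24 replicates 1, 2 and 3 or mta 00 replicate 3, and to 4 without Col-0 00 replicate 2 or mta 00 replicate 2. DESeq2 called 12.

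Uncapped RNA gave the largest chloroplast differences of the series, in the 35SALKBH10B line. In that line the chloroplast share of RPM was 0.0737%, 0.0859% and 0.0894% untreated and 0.784%, 0.870% and 0.726% with flg22. As said above, flg22 cannot be told apart from 4 h of time here. Group means of 0.0830% ± 0.00822 and 0.793% ± 0.0725 (SD, n = 3 each) differ 9.56-fold, with no overlap. The exact two-sided permutation p was 0.1, the smallest that 3 against 3 libraries allow, and 0.233 when adjusted over the shares compared. Col-0 went from 0.348% ± 0.128 to 0.266% ± 0.00688 and mta from 0.202% ± 0.0626 to 0.260% ± 0.0239. Mitochondrial genes of 35SALKBH10B moved in the same direction, from 0.274% to 0.732%, and 27 of 44 tested rose. The summed RPM of the 4 mesophyll markers went from 3447 to 4162 untreated to 2210 to 3246 with flg22 in that line. The part of either in the chloroplast result was not tested.

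**Figure D4:**
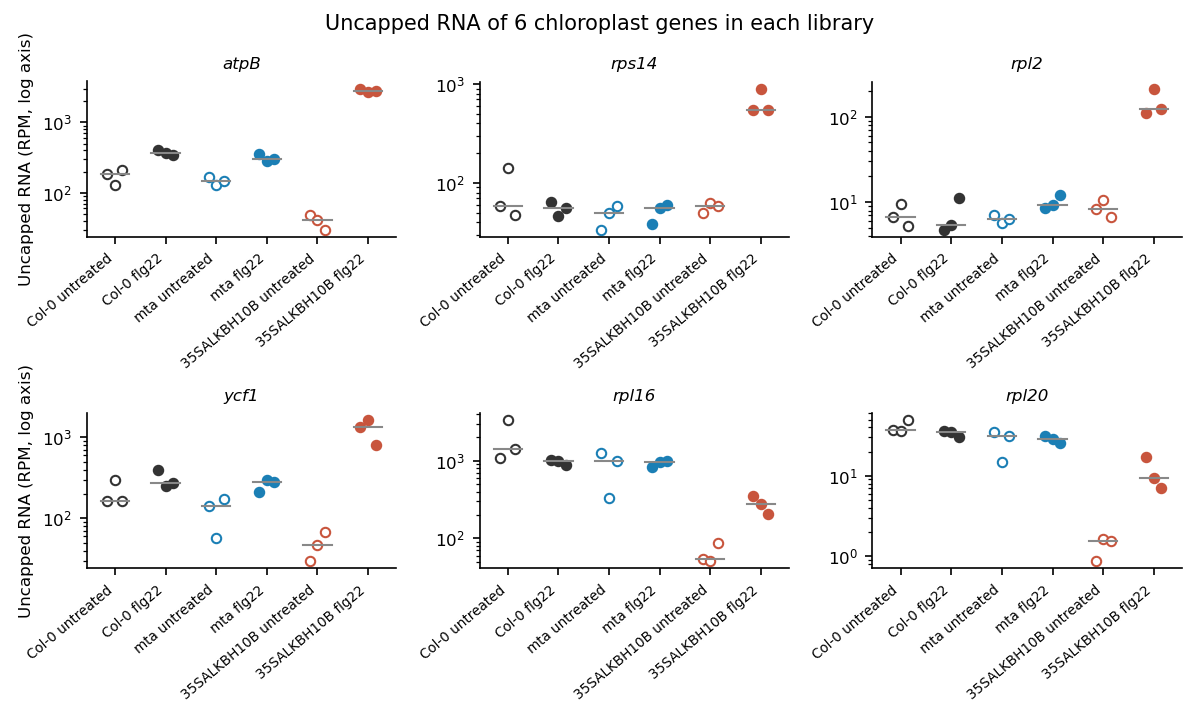
RPM (vertical axis, log scale) of uncapped RNA of atpB, rps14, rpl2, ycf1, rpl16 and rpl20 in each of the 18 GMUCT libraries, with open points for untreated, filled points for flg22 and bars at the group median. The 35SALKBH10B libraries with flg22 hold the highest values of atpB, rps14, rpl2 and ycf1 and stay below Col-0 with flg22 in rpl16 and rpl20.

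With flg22, 52 of 76 tested genes rose and 0 fell in 35SALKBH10B, where 10% of all genes tested rose and 11.1% fell. The median log2 fold change, on the scale of log2(RPM + 1), was 1.41 against −0.10 over all genes. The rise took in all 10 tested genes of the large ribosomal subunit (median 2.78), all 10 of the small subunit (median 2.46) and all 4 of the polymerase (median 2.44). It took in fewer of the photosynthesis genes, with 6 of 10 of photosystem II (median 1.34), 3 of 5 of the ATP synthase, 5 of 8 of the NDH complex and 2 of 5 of cytochrome b6f. Some genes, namely rpl23, its second copy, rpl36 and psbZ, passed the filter of 1 RPM in 3 libraries only through 35SALKBH10B with flg22. The filter thus favoured a rise in these genes, which is no support of its own. Both copies of rpl2 and of rpl23 are counted in the large subunit. The lowest count when 1 library was left out was 36. With reads counted by edgeR in place of RPM, 61 rose and 0 fell.

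The atpB gene, the beta subunit of the ATP synthase (52660 to 54156, minus strand), had the largest rise. Uncapped atpB RNA was at 48.3, 41.7 and 29.9 RPM in untreated 35SALKBH10B and at 3027, 2686 and 2802 RPM with flg22, a log2 fold change of 6.14 ± 0.20 (limma adjusted p = 4.75e-14). In Col-0 it went from 183, 131 and 214 to 411, 367 and 343 RPM (1.11 ± 0.20, limma adjusted p = 0.000203), and in mta from 167, 128 and 146 to 354, 282 and 300 RPM. All 3 lines thus showed higher atpB with flg22 and no overlap, and the rise in 35SALKBH10B exceeded that in Col-0 by 5.03 ± 0.29 on the log2 scale (limma adjusted p = 2.03e-09). The atpE gene, whose start overlaps the end of atpB, rose in 35SALKBH10B from 41.9, 35.9 and 44.7 to 440.5, 416 and 321 RPM (3.23, without overlap). The mRNA of 35SALKBH10B seedlings was not analysed here, so these rises have no mRNA value beside them.

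Ribosomal protein genes rose next. In 35SALKBH10B uncapped rpl22 went from 1.88, 3.08 and 2.36 to 191, 179 and 189.98 RPM (5.78 ± 0.38, limma adjusted p = 7.63e-09), while in Col-0 it went from 49.97, 22.8 and 58.5 to 117, 75.5 and 81.9. Uncapped rps3 went from 15.7, 8.82 and 7.55 to 347, 287 and 348 RPM (4.87, limma adjusted p = 1.04e-07) and in Col-0 from 183, 84.3 and 175 to 187, 199.8 and 218. Both genes thus started below Col-0 and ended above it. Before treatment rps14 and rpl2 were not called against Col-0 (limma adjusted p = 0.501 and 0.649). Uncapped rps14, next to psaB on the minus strand, was at 50.1, 63.3 and 58.9 RPM in untreated 35SALKBH10B and at 58.1, 141 and 47.5 in Col-0, and with flg22 it was at 544, 899 and 548 against 63.8, 46.5 and 55.3. Its rise was 3.47 ± 0.31 (limma adjusted p = 6.95e-07). Uncapped rpl2 was at 8.31, 10.7 and 6.73 RPM against 6.73, 9.65 and 5.21, and with flg22 at 110, 213 and 124 against 4.76, 5.49 and 11.2. Its rise was 3.93 ± 0.30 (limma adjusted p = 9e-08), though rpl2 lies in the inverted repeat and its reads can belong to either copy.

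The ycf1 gene and the polymerase genes rose too. Uncapped ycf1, which codes for a large protein linked to import into the plastid and lies partly in the repeat, went from 29.6, 46.7 and 67.6 to 1325, 1628 and 802 RPM (4.69, limma adjusted p = 1.04e-07). In Col-0 it stood at 164, 296 and 163 and then at 391, 250 and 273 RPM. Uncapped rpoB went from 4.39, 3.97 and 5.14 to 15.5, 49.4 and 24.96 RPM in 35SALKBH10B (2.35 ± 0.33, limma adjusted p = 0.000433) and from 6.39, 5.15 and 6.48 to 4.02, 3.54 and 5.87 in Col-0. Uncapped rpoA, at the end of the ribosomal protein operon, went from 19.5, 31.6 and 23.7 to 314, 344 and 151 RPM (3.32 ± 0.28, limma adjusted p = 3.54e-07). Uncapped rbcL went from 12.3, 20.8 and 14.9 to 33.8, 57.0 and 44.3 RPM (1.44 ± 0.32, limma adjusted p = 0.0057). For psbA, at 13.4 RPM or less in every library, the rise lost its call when any of 5 libraries was left out (limma adjusted p up to 0.14).

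Before treatment, uncapped chloroplast RNA was lower in 35SALKBH10B than in Col-0. Of 76 genes, 37 were lower and 2 higher, at a background of 9.18% lower and 3.40% higher, and the median log2 difference was −0.89 against −0.13 over all genes. Lower genes were 6 of 10 of photosystem II, 6 of 10 of the small ribosomal subunit, 5 of 10 of the large subunit, 3 of 5 of the ATP synthase, 3 of 5 of cytochrome b6f (median −2.39) and 1 of 4 of the polymerase. Uncapped petL, a small subunit of cytochrome b6f, was at 0.627, 0.0809 and 0.0514 RPM in 35SALKBH10B and at 41.8, 35.4 and 77.6 in Col-0 (−5.34 ± 0.73, limma adjusted p = 0.000201). Uncapped rpl16 was at 53.7, 50.6 and 87.9 RPM against 1086, 3322 and 1417 (−4.77 ± 0.40, limma adjusted p = 9.29e-07). Uncapped rpl20 was at 0.862, 1.62 and 1.54 against 37.4, 36.0 and 49.4 RPM (−4.17 ± 0.30, limma adjusted p = 7.85e-08). None of these groups overlapped. The 2 higher loci were ATCG01210, at 139, 193 and 198 RPM against 45.6, 54.7 and 34.0 (1.96 ± 0.54, limma adjusted p = 0.0221), and ATCG00950, at 16.0, 25.8 and 22.1 against 8.995, 10.9 and 8.15 (1.09, limma adjusted p = 0.0292). Their calls were lost when any of 3 and any of 4 libraries were left out.

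**Figure D5:**
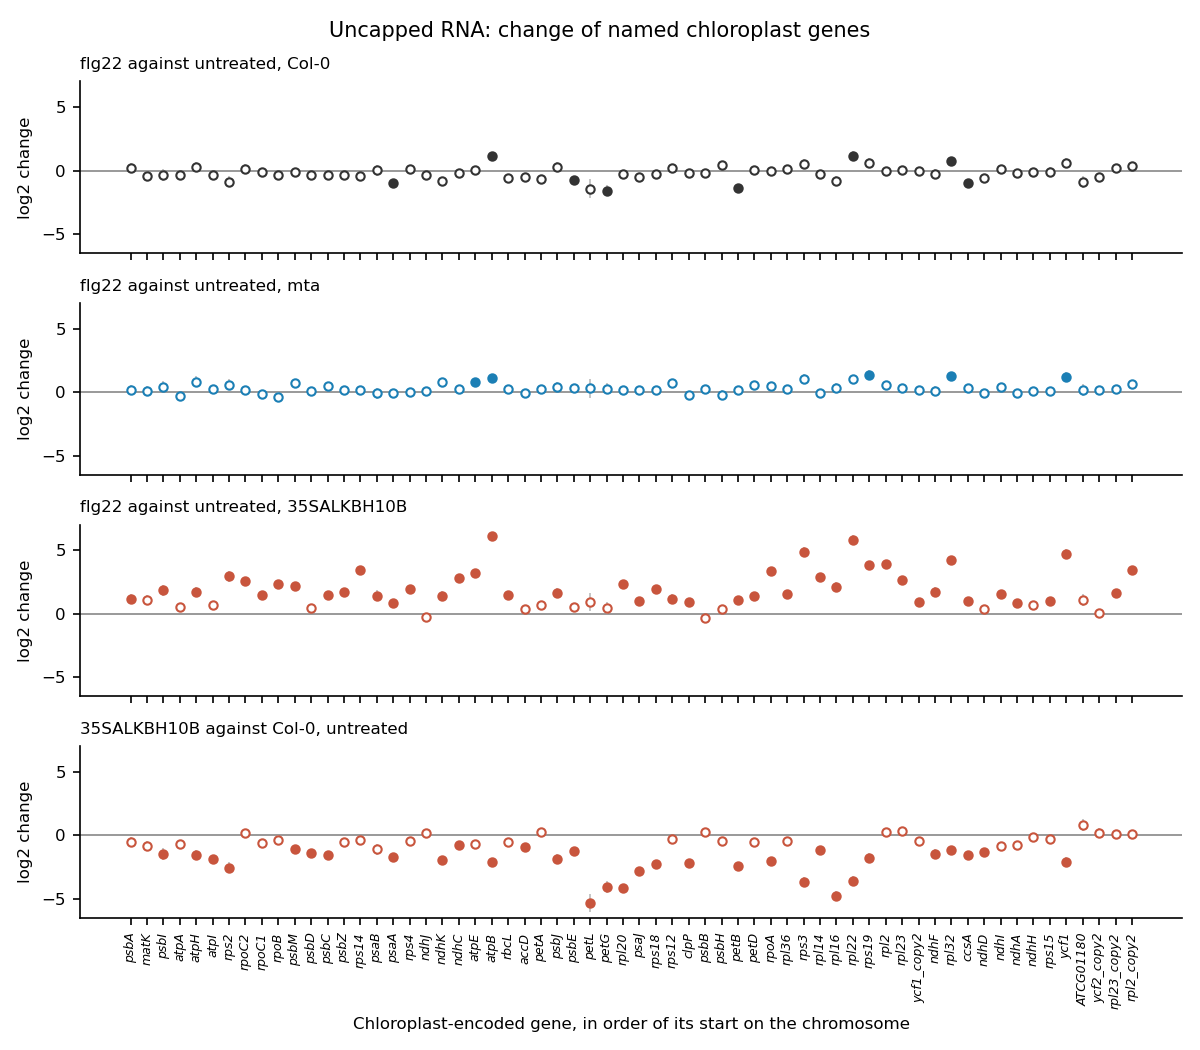
Log2 fold changes of uncapped RNA, on the log2(RPM + 1) scale with bars of ± 1 SE (vertical axis), of tested chloroplast-encoded genes that have a name and a position, in order of their start on the plastid chromosome (horizontal axis), in 4 panels for flg22 in Col-0, in mta and in 35SALKBH10B and for untreated 35SALKBH10B against Col-0. Filled points passed an adjusted p of 0.05, and atpB is filled in every panel, at 6.14 in 35SALKBH10B and 1.11 in Col-0 with flg22.

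After flg22 the order between the lines was mixed. Against Col-0 with flg22, 35SALKBH10B had 34 genes higher and 7 lower, at a background of 20.6% higher and 8.50% lower. All 4 polymerase genes were higher (median 1.84), as were 8 of 10 of the large ribosomal subunit and 6 of 10 of the small subunit, but only 2 of 10 of photosystem II. The limit of the filter given above for rpl23, its second copy, rpl36 and psbZ holds here too. Of the 37 genes that had been lower before treatment, 13 were now higher, 7 were still lower and 17 were not called. Uncapped rpl16 was among those still lower, at 352, 278 and 203 RPM against 1031, 999 and 879 (−1.83 ± 0.40, limma adjusted p = 0.00212). So were rpl20, at 17.1, 9.42 and 6.96 against 35.8, 35.1 and 30.5 (−1.60 ± 0.30, limma adjusted p = 0.000583), and petG of cytochrome b6f, at 1.48, 0.628 and 0.986 against 3.27, 8.65 and 12.7 (−2.05 ± 0.46, limma adjusted p = 0.00262). The groups of these 3 genes did not overlap. The largest positive differences were in rpl2, at 4.22 ± 0.30 (limma adjusted p = 2.96e-08), its second copy, and rps14, at 3.53 (limma adjusted p = 2.92e-07).

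The flg22 responses of 35SALKBH10B and Col-0 differed in 45 of 76 genes, all more positive in 35SALKBH10B, at a background of 12.2% positive and 2.74% negative. All 10 genes of the large ribosomal subunit (median 3.03), 8 of 10 of the small subunit (median 2.71) and all 4 of the polymerase (median 2.55) were among them, and 5 of 10 of photosystem II. For rpl23, its second copy, rpl36 and psbZ the filter again favoured this direction. After atpB the largest differences were 4.66 ± 0.53 for rpl22 (limma adjusted p = 2.63e-05) and 4.34 ± 0.54 for rps3 (limma adjusted p = 7.09e-05). Leaving out 1 library gave counts of 38 to 51.

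The make-up of uncapped chloroplast RNA differed with these changes. In all 12 libraries of Col-0 and mta, rpl16 (81189 to 82652, minus strand), a protein of the large ribosomal subunit, was first with 24.2% to 67.2% of the chloroplast RPM. In 35SALKBH10B with flg22, atpB was first in every library at 38.6%, 30.9% and 38.6%, ahead of ycf1 at 16.9%, 18.7% and 11.1%. In untreated 35SALKBH10B the locus ATCG01210 was first at 18.8%, 22.4% and 22.2%.

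In Col-0 and mta, uncapped chloroplast RNA differed little between untreated and flg22 samples. In Col-0, 3 genes rose and 9 fell, at a background of 10.5% higher and 40.1% lower. The risers were atpB, rpl22 and rpl32, the last from 13.6, 9.97 and 13.2 to 20.2, 19.8 and 23.2 RPM (0.74, limma adjusted p = 0.0191). The calls of rpl22 and rpl32 were lost when either of 2 libraries was left out (limma adjusted p up to 0.107 and 0.0638). Uncapped petG fell from 15.3, 23.8 and 35.7 to 3.27, 8.65 and 12.7 RPM (−1.57 ± 0.46, limma adjusted p = 0.00841), and ATCG00240 fell from 26.6, 15.4 and 30.0 to 1.27, 9.72 and 10.6 (−1.88 ± 0.55, limma adjusted p = 0.00838). Both lost their call without Col-0 flg22 replicate 1, which had the lowest value of each, and the count of genes was then 5. Uncapped petB, the cytochrome b6 gene, fell from 2.63, 7.72 and 4.57 to 0.893, 1.66 and 0.936 RPM (−1.39 ± 0.31, limma adjusted p = 0.00097). With reads counted by edgeR the split was 5 higher and 2 lower.

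In mta 5 genes rose and 0 fell, at a background of 6.43% higher and 16.0% lower. These were atpB, atpE, rpl32, rps19 and ycf1. Uncapped rpl32 went from 13.2, 11.01 and 14.1 to 24.6, 36.3 and 39.6 RPM (1.31 ± 0.25, limma adjusted p = 0.00145), without overlap. The rises of rps19 (1.38 ± 0.38, limma adjusted p = 0.0142) and ycf1 (1.21, limma adjusted p = 0.0236) were each lost when any of 3 libraries was left out. The count was 2 without mta flg22 replicate 2 or untreated mta replicate 2, and 3 without mta flg22 replicate 3. The responses of mta and Col-0 differed in 0 of 76 genes by limma and by edgeR on reads, with 11 at an unadjusted p under 0.05, at a background of 1.22% positive and 0.794% negative. Without untreated Col-0 replicate 1 the count was 1.

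Between mta and Col-0, 1 gene was lower without treatment, at a background of 1.78% lower and 2.31% higher. It was petB, at 1.43, 0.573 and 1.80 RPM in mta (−1.35 ± 0.31, limma adjusted p = 0.0158), whose call was lost without untreated Col-0 replicate 2 or untreated mta replicate 2. Without untreated mta replicate 1, 5 genes were lower. After flg22, 1 was higher, at a background of 2.41% higher and 0.477% lower. It was ATCG00950, at 10.3, 15.9 and 17.4 RPM against 3.80, 5.49 and 5.53 in Col-0 (1.37 ± 0.32, limma adjusted p = 0.0221), without overlap, and its call was lost when Col-0 flg22 replicate 1 or 2 or mta flg22 replicate 2 or 3 was left out.

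Set against mRNA of the same genotype and treatment, uncapped RNA of 41 chloroplast genes could be tested in seedlings of Col-0 and mta. Untreated samples are named for the start in uncapped RNA and for 4 h in mRNA. Contrasts that use untreated samples cannot be told apart from that difference in time. Those that use Col-0 with flg22 include mRNA replicate 1, the library that stands apart. It had 7505 counts of rbcL against 756 and 812 in replicates 2 and 3, and 207 of ATCG01180 against 18 and 27. Its part in these contrasts was not tested beyond leaving out libraries. For flg22 in Col-0 the median of the 41 was −0.93 on the log2 scale and −0.06 over all genes. None was called by limma, with 17 at an unadjusted p under 0.05, at a background of 0.662% lower and 0.276% higher. Leaving out Col-0 flg22 mRNA replicate 1 or 2 gave 1 call and leaving out replicate 3 gave 2. For flg22 in mta rpl32 alone was called higher (1.46 ± 0.32, limma adjusted p = 0.0421), at a background of 0.242% higher and 0.184% lower, and the call was lost when any of 10 libraries was left out. Between untreated mta and Col-0 the count was 0 by limma, with 3 at an unadjusted p under 0.05, at a background of 0.155% higher and 0.575% lower. After flg22 rbcL (2.59 ± 0.66, limma adjusted p = 0.0286) and ATCG01180 (2.61 ± 0.74, limma adjusted p = 0.0458) were higher relative to mRNA in mta, at a background of 1.93% higher and 1.79% lower. Those calls were lost when any of 5 and any of 8 libraries were left out, and 7 genes were called without Col-0 flg22 mRNA replicate 2. With flg22, mean rbcL mRNA was 44.8 CPM in mta and 284 in Col-0, the latter with replicate 1. Mean uncapped rbcL was 29.2 and 16.4 RPM.

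The authors' deposited table gives 1 log2 value of uncapped over total RNA per gene and group, including 35SALKBH10B. In the authors' deposited table the median of the chloroplast genes was −0.75 in untreated 35SALKBH10B and 0.17 with flg22, while it was 0.36 and 0.35 in Col-0 and −0.02 and 0.25 in mta. Over all genes it was −0.53 and −0.37, −0.28 and −0.47, and −0.38 and −0.34. These medians cover unlike sets of genes, such as 93 and 88 chloroplast genes in Col-0. For genes with both values, the median of flg22 minus untreated was 1.37 in 35SALKBH10B (77 genes), −0.40 in Col-0 (87) and 0.43 in mta (86). In the authors' deposited table atpB stood at 1.31 and 7.49 in 35SALKBH10B, at 3.58 and 4.47 in Col-0 and at 3.32 and 4.69 in mta. These single values have no spread, and the table's mRNA of 35SALKBH10B was not analysed here.

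Nuclear genes for plastid gene expression were followed beside their targets: sigma factors, the phage-type polymerases, proteins associated with the plastid polymerase, and RNA-binding and processing factors, 36 in all. With flg22, 28 of 34 tested fell and 0 rose in Col-0 seedlings (median −1.04 against −0.10 over all genes, of which 30.7% fell), and 28 fell and 0 rose in mta (median −0.93 against −0.025, with 20.2% of all genes lower). In Col-0 SIG1 fell by 1.54, SIG2 by 1.39 and SIG6 by 1.52 on the log2 scale, which are sigma factors of the plastid polymerase, and the phage-type polymerases RPOTp and RPOTmp fell by 1.18 and 1.48. From 00 to 24, 30 fell and 2 rose in Col-0 leaves (median −1.46 against 0.019 over all genes, of which 32.7% fell), and 28 fell and 1 rose in mta leaves (median −0.95 against 0.0091, with 28.1% of all genes lower). In mRNA this list fell in Col-0 seedlings, where 39 of 56 chloroplast genes were called higher with all libraries. Without Col-0 flg22 replicate 1 that count was 16 of 56, near the background of 27.5% higher. The list also fell in Col-0 leaves, where 25 chloroplast genes fell. Between the genotypes 12 of the list were higher and 0 lower in mta leaves at 24, where 14.5% of all genes were higher. In mta seedlings 10 were higher and 2 lower untreated, and 17 higher and 5 lower with flg22, where 18.1% of all genes were higher in each case. In uncapped RNA 0 of 36 rose with flg22 in any line, while 31 fell in Col-0 (median −1.33, with 40.1% of all genes lower), 28 in mta (median −1.25, with 16.0% lower) and 18 in 35SALKBH10B (median −0.73, with 11.1% lower). After flg22, 17 were higher and 0 lower in 35SALKBH10B than in Col-0, where 20.6% of all genes were higher.

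Peaks of the m6A immunoprecipitation were deposited for 26 libraries as MACS2 lists, and 1699 summits lay on the plastid chromosome. Of these, 1064 lay in a chloroplast gene of the strand opposite to the list's name only and 62 in one of the same strand only, the same turn of strand as 493451 against 19830 summits of nuclear loci. A summit was found in 72 genes in at least 1 library. In all 17 seedling libraries 9 genes had one, namely rpl16, rps14, both copies of rpl2, rps7, rps18, clpP, ycf1 and ATCG01180. In all 9 leaf libraries 12 genes had one. Overlapping loci limit these lists. The rps3 locus spans rpl16 and rpl2 but is listed in 0 of 17 seedling libraries, and rpl20, which spans clpP, in 13. Such a value does not show that the spanning locus lacks a summit. The number per library ranged from 39 to 71 in seedlings and from 58 to 108 in leaves, but the seedling lists reach a q of 0.01 and the leaf lists a p of 0.01, so tissues are not compared. Col-0 seedlings had 62 and 60 peaks untreated and 44, 55 and 53 with flg22, and 35SALKBH10B had 54, 39 and 48 and then 56, 57 and 52. Leaves at 00 had 62, 73 and 101 in Col-0 and 101, 108 and 99 in mta. No comparison passed the exact two-sided permutation test, whose smallest p here is 0.1. Untreated Col-0 replicate 1 and mta leaves at 24 were not analysed here.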

How the data were processed

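For mRNA, the deposited tables hold whole read counts per feature. In seedlings the authors counted with featureCounts 2.0.1, per the header of the deposited counts. The submitters' processing notes name STAR, MACS2 and TAIR10 without versions. For GMUCT the authors deposited RPM, scaled per library to the sum over genes. Every value divides into whole reads within 0.01 (100.0% of values). The authors' deposited log2 table of uncapped over total RNA has 1 value per group. The authors' deposited MACS2 lists give a fold, a −log10 p and a −log10 q per peak, which were used only to filter peaks. The names of 12 seedling columns could not be matched to samples, and those columns were not used. Some genes are counted but not reported by name here.

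Genes were named from RefSeq (assembly TAIR10.1), with no coordinates taken from it. All 32844 gene loci of a tissue were fitted together in R 4.3.3 with edgeR 4.0.16 (quasi-likelihood, TMM, filterByExpr), and printed CPM are TMM-scaled. GMUCT was fitted with limma 3.58.1 on log2(RPM + 1) for genes with at least 1 RPM in 3 libraries, a scale that understates changes of low genes. To set uncapped RNA against mRNA, limma was fitted to both kinds of library with mRNA as log2(CPM + 1), and the contrast by kind interaction was tested. P-values were adjusted over all genes by Benjamini-Hochberg, with 0.05 as threshold, and "rose", "fell", "higher" and "lower" counts refer to it. Shares and peak numbers were compared by exact two-sided permutation. Alternatives were DESeq2 1.42.0, other scalings, filters and pseudocounts, a replicate block, and leaving out each library. Among the contrasts, residuals of same-numbered libraries correlated above 0.1 in all 3 pairs for mta leaves at 24 against 00 (0.26 to 0.35). They did so for mta against Col-0 at 24 as well (0.31 to 0.51). Col-0 leaves at 24 and mta leaves at 00, which form no contrast here, also did so (0.11 to 0.60). Genes named are anchors of each complex, the 3 largest rises and falls per comparison among called genes with groups that do not overlap, the 3 highest per kilobase, and overlapping genes. The members and all gene lists were chosen with earlier results of these data known. The edgeR and limma fits were tested on simulated data first.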

Additional observations from a re-analysis of the deposited data

Results flagged for a closer look

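The results listed here were flagged because a response differed between genotypes by a test of the difference itself. In seedling mRNA the response to flg22 differed between mta and Col-0 for 16 chloroplast genes (edgeR), with rps14 at −2.21 and psbA at −1.92 on the log2 scale, mta minus Col-0. Without the Col-0 flg22 library that stands apart (replicate 1) 1 gene, rpoB, was called.

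In leaf mRNA the change from 00 to 24 differed between mta and Col-0 for 7 genes (edgeR), with ndhH at 3.40, ATCG01180 at 3.27 and psbA at 3.01. Without mta 24 replicate 2 the count was 1, which was ndhH.

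In uncapped RNA the response to flg22 differed between 35SALKBH10B and Col-0 for 45 genes (limma), with atpB at 5.03, rpl22 at 4.66 and rps3 at 4.34. Without any 1 library the count stayed between 38 and 51. The mitochondrial genes, tested in the same fit, differed in 22 of 44, all more positive in 35SALKBH10B. What this shares with the chloroplast result was not tested.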

How the results depend on the processing

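A whole mRNA library holds few chloroplast counts, so depth limits the values of weakly expressed genes. Leaving out 1 library at a time moved the counts of called genes as follows. In seedling mRNA the range was 16 to 47 for flg22 in Col-0, 0 to 1 for flg22 in mta, 8 to 38 for mta against Col-0 with flg22, 2 to 4 untreated and 1 to 24 for the difference of responses. In leaves it was 12 to 27 for 24 against 00 in Col-0, 5 to 13 in mta, 4 to 7 for mta against Col-0 at 00, 21 to 37 at 24 and 1 to 10 for the difference. In GMUCT it was 5 to 14 for flg22 in Col-0, 2 to 7 in mta, 36 to 53 in 35SALKBH10B, 0 to 5 for untreated mta against Col-0, 0 to 1 with flg22, 28 to 41 for untreated 35SALKBH10B against Col-0, 35 to 39 with flg22, and 0 to 1 and 38 to 51 for the differences of mta and 35SALKBH10B from Col-0. For uncapped RNA relative to mRNA it was 0 to 2, 0 to 1, 0 to 1 and 0 to 7. The difference in chloroplast share (percentage points) ran from −0.00170 to 0.00280 for flg22 in mta seedlings, −0.00513 to 0.00902 for mta against Col-0 leaves at 00 and −0.0135 to 0.00721 for mta against Col-0 with flg22 in GMUCT. The difference in m6A peaks ran from −1 to 7 for untreated mta against Col-0 and −20.2 to 3.83 for 24 against 00 in Col-0 leaves. Setting the library size to the chloroplast total left 0 genes for flg22 in Col-0 seedlings, for each contrast of mta with Col-0 in seedlings and for the difference there, and 0 for 24 against 00 in mta leaves and for mta against Col-0 at 00. It turned 24 against 00 in Col-0 leaves to 4 genes (3 higher), mta against Col-0 at 24 to 6 (0 higher), and the leaf difference to 1 (lower). It also turned single genes (log2): for flg22 in Col-0 rpoB to −0.25, psbD to −0.021, rps14 to −0.11, psaA to −0.022, atpB to −0.18, accD to −0.33 and ycf1 to −0.21, for mta against Col-0 with flg22 psbD to 0.18, psaA to 0.44 and ycf1 to 0.36, for the difference psaA to 0.25, in Col-0 leaves rpoB to 0.022 and atpB to 0.48, and for mta against Col-0 at 24 rpoB to −0.50 and rps14 to −0.072. That scale removes any change common to all chloroplast genes by construction. Without a filter on low values edgeR called 6 genes for flg22 in mta seedlings and 9 for untreated mta against Col-0, limma on RPM called 2 for untreated mta against Col-0 and 1 for the mta difference, and uncapped RNA relative to mRNA gave 1 for flg22 in Col-0 and 0 for mta against Col-0 with flg22. A fold of at least 2 left 1 gene for untreated mta against Col-0 seedlings, 2 for mta against Col-0 leaves at 00, 6 for flg22 in Col-0 GMUCT and 4 for 24 against 00 in mta leaves (all higher). DESeq2 called 7 for the seedling difference, 12 for the leaf difference and 11 for 24 against 00 in mta leaves (6 higher). By edgeR on recovered reads GMUCT gave 9 for flg22 in mta, 0 and 2 for mta against Col-0 untreated and with flg22, and 7 for flg22 in Col-0 (5 higher). A pseudocount of 0.1 left 0 genes for untreated mta against Col-0 in GMUCT and 0 for flg22 in mta relative to mRNA. The replicate block gave 10 genes for the seedling difference, 2 for mta against Col-0 with flg22 in GMUCT and 1 for the same contrast relative to mRNA, and was within 1.5 times for the other 20 counts, where it gave 8 in place of 9 and 33 in place of 33 for the paired leaf contrasts. The labels give no pairing of samples beyond a shared replicate number. As a percent of all peaks, chloroplast m6A peaks turned to 0.00576 for flg22 in mta and to −0.0298 for untreated mta against Col-0. The cause of these changes was not tested. Of 1703 values of named genes under alternatives, 15 reversed and 296 missed the threshold. Scaling by nuclear genes alone and counting every annotated feature left all counts they were run on within 1.5 times.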
